A study of Homo sapiens with 20 samples.

Results

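The genes described here are 10 pan-leukocyte genes (EVI2A, EVI2B, LAPTM5, PTPRC, CORO1A, LCP1, SELPLG, LSP1, ARHGDIB and NCKAP1L), taken by symbol from the 18305 genes of an RNA sequencing table, and all 10 were found. EVI2B and LAPTM5 led to the choice, since the list was chosen by their FPKM, which falls to near 0 in resistant cells. For LAPTM5 this holds in RPMI BtzR alone, and in no group were all 10 genes near 0. The values of EVI2B and LAPTM5 are therefore given throughout as a description with no test. The other 8, called companion genes below, were set beside them to see whether further blood-lineage genes fall in the same cells. RNA came from wild-type (WT) cells of 3 multiple myeloma lines (AMO1, L363 and RPMI-8226, labelled RPMI) and of ARH77, a B-lymphoblastoid line. Bortezomib-resistant (BtzR) cells were sequenced for all 4 lines, and carfilzomib-resistant (CfzR) ones for AMO1 and L363. Bortezomib and carfilzomib inhibit the proteasome, and resistant cells were kept in 90 nM of the drug, whereas the WT groups carry no drug in their labels. A WT and a resistant group thus differ in both selection history and drug in the medium, and these cannot be told apart. Each of the 10 groups had 2 biological replicates, which makes 20 libraries. As far as the labels show, each resistant group is 1 derivative of its line, so its replicates say nothing of how another derivative would look.

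Leukocytes share a set of proteins that most other cell types lack. Some sit in membranes, as do the phosphatase CD45 and the selectin ligand PSGL-1, and others organise the actin cortex with which blood cells move and form contacts. Normal plasma cells, the cells from which myeloma arises, carry less CD45 than B cells, and myeloma lines are known to vary in it. Among the membrane genes, EVI2A and EVI2B encode single-pass proteins and lie within an intron of NF1, LAPTM5 encodes a lysosomal membrane protein of haematopoietic cells, PTPRC encodes CD45, and SELPLG encodes PSGL-1. The remaining 5 genes act at the cytoskeleton: CORO1A encodes the actin-binding protein coronin-1A, LCP1 the actin-bundling L-plastin, LSP1 an F-actin-binding leukocyte protein, ARHGDIB a cytosolic inhibitor of small GTPases, and NCKAP1L the haematopoietic subunit (HEM1) of the WAVE complex, which drives actin branching.

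Values are FPKM, the deposited unit, in which fragments are scaled by transcript length and library size, and summed to between 457317 and 494850 per library. Replicates correlated with a Pearson r of 0.986 to 0.998 over tested genes. All 6 plasma cell markers (SDC1, TNFRSF17, PRDM1, XBP1, IRF4 and MZB1) reached 1 FPKM in both libraries of every myeloma group, and all 6 B-cell markers did so in the ARH77 groups. Of the plasma cell markers, 5 also did so in each ARH77 group, and at most 2 B-cell markers did so in a myeloma group. The libraries labelled AMO1 CfzR stand apart from their label. They correlated with the 6 L363 libraries at r = 0.986 to 0.992 and with the 4 other AMO1 libraries at only 0.878 to 0.883. They are called "the libraries labelled AMO1 CfzR" throughout, are described apart from the others, and enter no count over resistant groups.

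WT cells of the 4 lines already held these genes at very different levels. EVI2B stood at 17.7 and 24.7 FPKM in AMO1 WT, at 2.28 and 2.96 in L363 WT, at 95.8 and 96.8 in RPMI WT and at 36.5 and 49.8 in ARH77 WT. LAPTM5 stood at 57.4 and 63.5 FPKM in AMO1 WT, 29.8 and 29.0 in L363 WT, 237 and 206 in RPMI WT and 391.9 and 327 in ARH77 WT. For both genes L363 WT had the lowest replicates of the 4 lines, with no overlap with any other line. L363 WT was also the lowest line for EVI2A (0.92 and 1.15 FPKM), CORO1A (30.7 and 32.7), LCP1 (0.36 and 0.42), ARHGDIB (1.40 and 1.77) and NCKAP1L (0.03 and 0.12). Its SELPLG RNA, at 72.3 and 71.0 FPKM, was instead close to that of AMO1 WT (88.6 and 103) and RPMI WT (83.9 and 80.4). PTPRC was split differently, with 16.2 and 23.8 FPKM in AMO1 WT and 17.9 and 24 in ARH77 WT against 0.97 and 1.11 in L363 WT and 1.23 and 1.17 in RPMI WT. AMO1 WT and ARH77 WT overlapped for this gene.

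**Figure D1:**
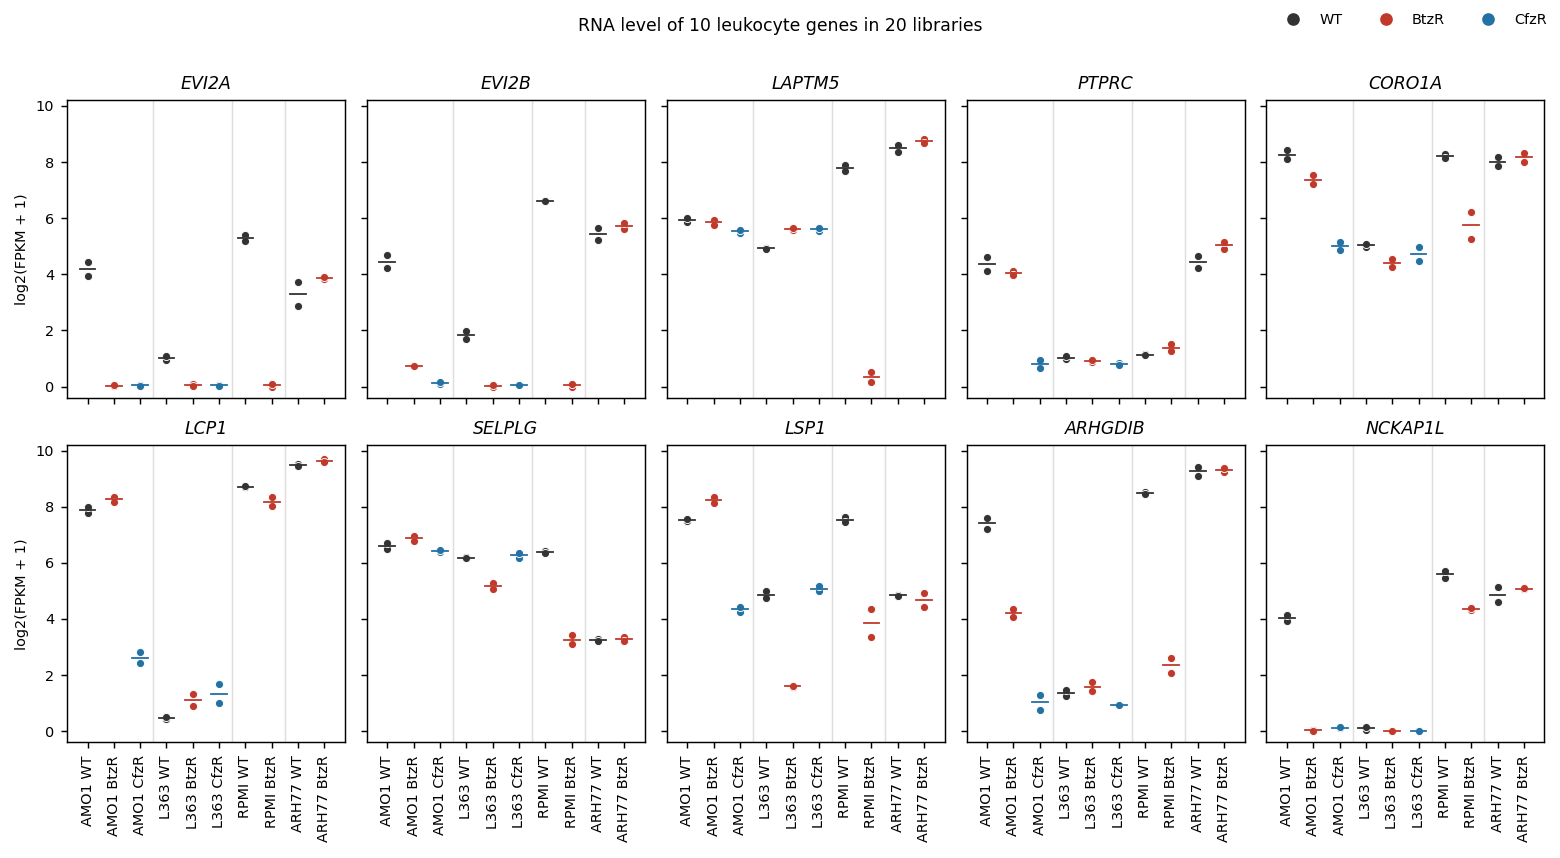
RNA level of each of the 10 genes, as log2(FPKM + 1), in the 20 libraries. Points are replicates, bars are group means, and colour gives WT, BtzR or CfzR. EVI2A and EVI2B lie near 0 in the groups labelled as resistant AMO1, L363 and RPMI and stay high in ARH77, LAPTM5 is near 0 only in RPMI BtzR, and L363 WT is low for most of the genes.

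In a limma fit on log2(FPKM + 1) with Benjamini-Hochberg adjustment over 13089 genes, a moderated F test across the 4 WT groups passed an adjusted p of 0.05 for all 8 companion genes, but also for 92.6% of all genes tested, so differing between lines is no property of this list. ARH77 WT was then set against the mean of the 3 myeloma WT groups. The error of this comparison came from replicate libraries, and ARH77 is 1 line. Its SE and p thus do not measure the spread between lines of either type. A gene was called when its adjusted p was under 0.05 and its log2-fold change at least 1 in size. Of the 8 companion genes, 4 were called higher in ARH77 (11.9% of all genes tested) and 2 lower (10.3%). The largest of these differences was that of LCP1, at 742 and 698 FPKM in ARH77 WT against 216 and 252 in AMO1 WT, 0.36 and 0.42 in L363 WT and 414 and 422 in RPMI WT. Its log2-fold change was 3.81 ± 0.16 (SE), with a limma adjusted p of 1.8e-11. ARHGDIB followed with 3.50 ± 0.17, from 547 and 680 FPKM in ARH77 WT. The myeloma lines differed widely for it, at 147 and 192 FPKM in AMO1 WT, 1.40 and 1.77 in L363 WT and 363.3 and 351 in RPMI WT. PTPRC (log2-fold change 2.26) and NCKAP1L (1.62) completed the group. The ARH77 libraries lay above all 6 myeloma WT libraries for LCP1 and ARHGDIB, and overlapped them for PTPRC and NCKAP1L. The differences of LAPTM5 (2.27) and EVI2B (1.15) were not tested. SELPLG went the other way, at 8.83 and 8.34 FPKM in ARH77 WT, below every myeloma WT library, with a log2-fold change of -3.12 ± 0.09. LSP1 was also called lower (-1.80 ± 0.19), although L363 WT and ARH77 WT overlapped for it.

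RPMI BtzR had the most companion genes called lower of the 5 comparisons of resistant cells with their own WT line. EVI2B went from 95.8 and 96.8 FPKM in RPMI WT to 0 and 0.06 in RPMI BtzR, and LAPTM5 from 237 and 206 to 0.13 and 0.44, log2-fold changes of -6.56 and -7.44 that chose the list and were not tested. Of the 8 companion genes, 6 were called lower (7.92% of all genes tested) and 0 higher (5.91%). At an unadjusted limma p under 0.05, 7 were lower and 0 higher. The share of all genes tested that passes this unadjusted cut is not given, here or below, so such counts stand without a background. The median log2-fold change of the 8 was -2.79, against 0.05 over all genes tested. The companion list was put together with earlier results of these data known, so these counts are not independent evidence of a direction.

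Among the membrane genes, EVI2A went from 41.2 and 35.6 FPKM in RPMI WT to 0 and 0.08 in RPMI BtzR. Its log2-fold change was -5.24 ± 0.21 (SE), with a limma adjusted p of 1.89e-11. SELPLG went from 83.9 and 80.4 FPKM to 7.52 and 9.67, which is 9.56-fold lower (limma adjusted p 8.73e-12). PTPRC did not follow them. It was already low in RPMI WT (1.23 and 1.17 FPKM) and stood at 1.42 and 1.83 in RPMI BtzR, a log2-fold change of 0.25 with a 95% interval of -0.11 to 0.61.

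The cytoskeletal genes were split in RPMI. ARHGDIB dropped from 363.3 and 351 FPKM to 3.21 and 5.18, which is 85.1-fold lower and the largest fold among the companion genes with a mean of at least 1 FPKM in both groups. LSP1 dropped from 196 and 172 FPKM to 9.33 and 19.7, which is 12.7-fold lower, and CORO1A from 308 and 281 to 37.7 and 73.5, which is 5.3-fold lower. The BtzR replicates of these genes lay well apart from each other but never near the WT replicates. NCKAP1L went from 43.4 and 50.98 FPKM to 19.2 and 19.7, a smaller fall of 2.42-fold (limma adjusted p 3.11e-06). LCP1 kept most of its RNA, at 259 and 323 FPKM in RPMI BtzR against 414 and 422 in RPMI WT, and its log2-fold change of -0.53 (95% interval -0.95 to -0.11) was under the size needed for a call. In a bulk culture, fewer cells that express a gene and less RNA per cell cannot be told apart. The summed FPKM of the 6 plasma cell markers was 1134 to 1186 in RPMI WT and 848 to 912 in RPMI BtzR, but they did not move together. TNFRSF17 (BCMA) was called lower and the mean of MZB1 was 686 in WT and 368 in BtzR cells, while XBP1 (247 and 334), IRF4 (63.4 and 100.3) and PRDM1 (12 and 18.6) were higher in BtzR cells without being called, and the median log2-fold change of the 6 was 0.16. B-cell markers were summed at 9.08 to 9.31 FPKM and 0.27 to 0.51, T-cell markers were summed at 4.51 to 4.91 FPKM and 2.18 to 2.67 with CD3D at 0 throughout, myeloid markers at 18.7 to 23.1 and 9.83 to 12.1 with FCGR3A and MPO at 0, and stromal and epithelial markers, almost all of it EPCAM, at 56.4 to 56.6 and 58.2 to 68.2. Of these lists, CD79B, CR2, TRAT1 and CD68 were called lower, TRAT1 no longer after quantile normalization (log2-fold change -0.95). The part of these in the result was not tested.

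In AMO1 BtzR, 3 companion genes were called lower, each of which was also called lower in RPMI BtzR. EVI2B went from 17.7 and 24.7 FPKM in AMO1 WT to 0.66 and 0.65, a log2-fold change of -3.73, while LAPTM5 stood at 57.4 and 63.5 in WT and 60.8 and 52.9 in BtzR cells, with overlapping replicates. Of the companion genes, 3 of 8 were called lower (4.57% of all genes tested) and 0 higher (4.61%), and at an unadjusted limma p under 0.05 the counts were 4 and 2. The median log2-fold change of the 8 was -0.61, against -0.0017 over all genes tested. EVI2A went from 14.3 and 20.9 FPKM to 0.01 and 0.04, a log2-fold change of -4.16 ± 0.21 (limma adjusted p 8.96e-10). NCKAP1L, the WAVE complex subunit, went from 14.3 and 16.7 FPKM to 0.03 and 0.01, a log2-fold change of -4.01 ± 0.14 (limma adjusted p 2.07e-11). ARHGDIB went from 147 and 192 FPKM to 15.8 and 19.5, which is 9.61-fold lower. These 3 genes were thus called lower in both RPMI BtzR and AMO1 BtzR, but NCKAP1L was near 0 in AMO1 BtzR and kept 19.2 FPKM or more in RPMI BtzR, and ARHGDIB was the reverse, lower in RPMI BtzR than in AMO1 BtzR.

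The other companion genes did not fall to near 0 in AMO1 BtzR. CORO1A stood at 146 and 184 FPKM against 272 and 346 in AMO1 WT, a log2-fold change of -0.90 that passed the adjusted p (limma, 0.0084) and missed the size for a call. It would be called without the first AMO1 WT library (-1.07) or without the second AMO1 BtzR library (-1.07). LSP1 was higher in both BtzR libraries (322 and 283 FPKM) than in AMO1 WT (181 and 187), again under the size for a call at 0.71 with a limma adjusted p of 0.019. LCP1, at 216 and 252 FPKM in WT and 328 and 289 in BtzR cells, and SELPLG, at 88.6 and 103 against 124 and 109, missed the adjusted p. PTPRC overlapped between the groups (16.2 and 23.8 FPKM against 16.5 and 14.8). The plasma cell markers summed to between 3745 and 4071 FPKM in AMO1 WT and between 2143 and 2375 in AMO1 BtzR. SDC1 (CD138) alone of the 6 was called, lower at a mean of 1316 against 3075 FPKM, whereas MZB1 (629 against 489) and PRDM1 (37.9 against 26.3) were higher without being called, and the median log2-fold change of the 6 was -0.028. B-cell markers summed to 52.3 to 53.2 FPKM in WT and 24.6 to 24.9 in BtzR cells, T-cell markers to 9.78 to 14.6 and 1.58 to 2.08, and myeloid markers to 9.79 to 11.6 and 5.02 to 5.49, with FCGR3A and MPO at 0. CD79B, CD3E, CD8A and CD68 were called lower, CD79B no longer after quantile normalization (log2-fold change -0.999) and CD8A no longer without the second AMO1 BtzR or the second AMO1 WT library (-0.99 in both cases). Whether this has a part in the result was not tested.

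**Figure D2:**
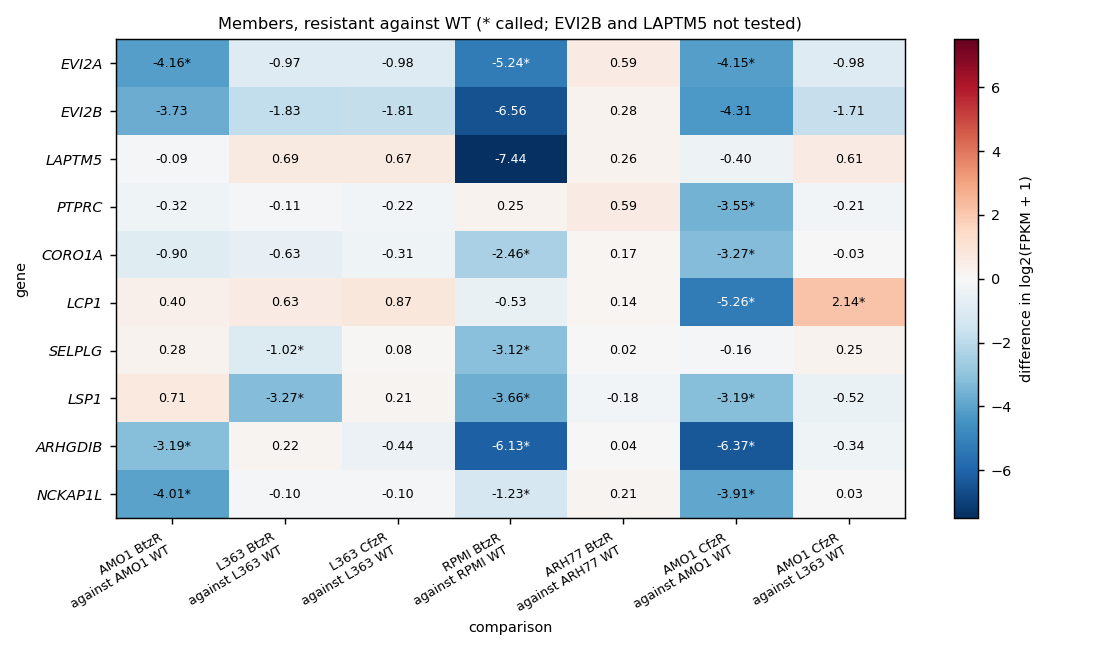
Difference in log2(FPKM + 1) between resistant and WT cells for the 10 genes in 7 comparisons; red is higher and blue lower in the first group, and an asterisk marks a call (EVI2B and LAPTM5 carry no test). RPMI BtzR has 6 companion genes called lower, AMO1 BtzR 3, L363 BtzR 2, and L363 CfzR and ARH77 BtzR none; the 2 columns of the libraries labelled AMO1 CfzR differ by the WT line they are set against.

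In L363, where most of these genes were low to begin with, both resistant groups were compared with the same WT libraries. EVI2B went from 2.28 and 2.96 FPKM to 0 and 0.03 in L363 BtzR and to 0.03 in both L363 CfzR libraries. LAPTM5 was not lost in this line. It went from 29.8 and 29.0 FPKM in WT to 46.9 and 49.6 in BtzR and 46.1 and 49.0 in CfzR cells, with log2 differences of 0.69 and 0.67 that were not tested. In L363 BtzR, 2 of 8 companion genes were called lower (1.05% of all genes tested) and 0 higher (1.02%), with 4 and 1 at an unadjusted limma p under 0.05. LSP1 went from 30.6 and 25.9 FPKM to 2.02 and 2.04, which is 13.9-fold lower with a limma adjusted p of 1.62e-07. SELPLG went from 72.3 and 71.0 FPKM to 37.5 and 32.2, which is 2.06-fold lower. That value lies at the threshold, and SELPLG was no longer called when the second L363 BtzR library was left out (log2-fold change -0.91), when libraries were rescaled to the same sum (-0.96) or after quantile normalization (-0.99). Of the marker lists, the T-cell markers summed to 9.08 to 9.10 FPKM in L363 WT, 0.88 to 1.99 in L363 BtzR and 1.04 to 1.66 in L363 CfzR, with TRAT1, at a mean of 8.05 in WT, called lower in both and CD3D at 0 throughout. B-cell markers summed to 9.30 to 9.97, 17.9 to 22.6 and 18.5 to 19.8 FPKM, with CD79B called higher in L363 BtzR, a call lost without the first L363 BtzR library (log2-fold change 0.83) or the second L363 WT library (0.97). Plasma cell markers (2039 to 2346, 1935 to 2049 and 1994 to 1999 FPKM) and myeloid markers (5.15 to 5.33, 5.48 to 5.64 and 6.15 to 7.59) had no call. The part of these in the result was not tested.

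Neither LSP1 nor SELPLG was lower in L363 CfzR, at 30.8 and 34.7 FPKM and at 71.5 and 80.9 FPKM. In that group 0 of 8 companion genes were called lower (0.825% of all genes tested) and 0 higher (1.11%), and 2 and 1 passed an unadjusted limma p under 0.05. With 1 FPKM added, a gene under 1 FPKM in WT cannot fall by 1 log2 unit. In L363 WT this applied to LCP1 and NCKAP1L, at means of 0.39 and 0.075. EVI2A and PTPRC, at 1.035 and 1.04, could be called lower only by falling almost to 0. The counts called lower in both L363 groups carry this limit. The direct comparison of L363 CfzR with L363 BtzR called 2 companion genes higher (0.94% of all genes tested) and 0 lower (0.535%), with 1 lower at an unadjusted limma p under 0.05. These were LSP1, 16.1-fold higher (limma adjusted p 1.53e-07), and SELPLG, 2.19-fold higher (limma adjusted p 1.37e-05). Without the second L363 BtzR library the SELPLG difference was 0.9995 on the log2 scale, just short of a call.

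EVI2A in L363 illustrates what the log scale does to low genes. It was at 0.92 and 1.15 FPKM in WT and at 0.06 and 0.02 in L363 BtzR and 0.04 and 0.02 in L363 CfzR, so that no resistant replicate came near the WT ones. With 1 FPKM added, the log2-fold changes were -0.97 and -0.98 (limma adjusted p 0.006 and 0.0062), short of a call. With 0.1 FPKM added they were -3.03 and -3.12, and both were called. LCP1 was higher in both resistant groups, at 0.86 and 1.48 FPKM in BtzR and 0.99 and 2.24 in CfzR against 0.36 and 0.42 in WT, and was called higher in both only with 0.1 or 0.01 FPKM added. PTPRC, ARHGDIB and NCKAP1L were at 2.36 FPKM or less in every L363 library. CORO1A, at 30.7 and 32.7 FPKM in WT, stood at 18.1 and 22.4 in BtzR and 21.3 and 30.1 in CfzR cells. Both resistant groups lay below WT for it, and the log2-fold changes of -0.63 and -0.31 were short of a call.

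In ARH77 BtzR cells none of the 8 companion genes was called in either direction. EVI2B was at 48.2 and 56.4 FPKM against 36.5 and 49.8 in ARH77 WT, and LAPTM5 at 448 and 408 against 391.9 and 327. No companion gene was called lower (0 of 8, 0.649% of all genes tested) or higher (0 of 8, 0.955%), and at an unadjusted limma p under 0.05 the counts were 0 and 2. PTPRC passed the adjusted p alone (0.031, limma), at 29.0 and 34.8 FPKM against 17.9 and 24, a log2-fold change of 0.59 with a 95% interval of 0.23 to 0.96. EVI2A, at 13.3 and 14.1 FPKM against 6.29 and 12.1, would be called higher without the second ARH77 WT library (log2-fold change 1.01). The intervals of the other companion genes reached no lower than -0.67, the lower end for LSP1. ARH77 WT had the widest spread between replicates of all groups, a median of 0.21 on the log2 scale against 0.07 to 0.15 elsewhere. Of the marker lists, TRAT1 alone was called, lower at 0 and 0.03 FPKM in ARH77 BtzR against 3.66 and 4.31 in ARH77 WT. Its part in the result was not tested.

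The libraries labelled AMO1 CfzR gave different answers depending on the WT line they were set against. EVI2B was at 0.08 and 0.13 FPKM and LAPTM5 at 43.9 and 47.0. Set against AMO1 WT, as labelled, 7 of 8 companion genes were called lower (9.21% of all genes tested) and 0 higher (7.88%), with 7 and 0 at an unadjusted limma p under 0.05. Set against L363 WT, 0 were called lower (0.802%) and 1 higher (0.856%), with 2 and 2 at an unadjusted limma p under 0.05. LCP1 and NCKAP1L were too low in L363 WT to be called lower, and EVI2A and PTPRC almost so. The gene called higher was LCP1, at 4.38 and 6 FPKM against 0.36 and 0.42 in L363 WT and 216 and 252 in AMO1 WT. NCKAP1L (0.08 and 0.11 FPKM), ARHGDIB (0.70 and 1.45) and PTPRC (0.94 and 0.60) were at L363 levels in these libraries.

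Across the 4 lines, the change from WT to BtzR cells differed for all 8 companion genes (limma, F test of line by resistance), a test that 71.1% of all genes tested also passed. The largest adjusted p among the 8 was 0.016, for PTPRC. Counting the 5 comparisons without the libraries labelled AMO1 CfzR, EVI2A, SELPLG, LSP1, ARHGDIB and NCKAP1L were each called lower in 2, CORO1A in 1, and PTPRC and LCP1 in 0. None was called higher in any of the 5. LCP1 and NCKAP1L were too low in L363 WT to be called lower there, and EVI2A almost so. PTPRC was near that limit in both L363 WT and RPMI WT. PTPRC and LCP1 were lower at an unadjusted limma p under 0.05 in, respectively, none of the 5 and RPMI BtzR alone.

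Over the means of 9 groups, without the libraries labelled AMO1 CfzR, EVI2A and EVI2B followed each other most closely of all pairs of the 10 genes, with a Pearson r of 0.97 on log2(FPKM + 1). CORO1A and ARHGDIB gave 0.94 and EVI2B and ARHGDIB 0.93. LAPTM5 gave 0.73 with EVI2B, its highest, and SELPLG gave at most 0.038 with every gene of the list but LSP1 (0.57). These are descriptions, since groups of 1 line share most of their expression. Outside the 10 genes, those most like EVI2B were LPXN (r = 0.98), CYSLTR1 (0.97) and BTK (0.97). Most like EVI2A were JRKL (0.99), LYL1 (0.96) and CYSLTR1 (0.96). ARHGDIB was followed most closely by ARHGAP15 (0.98), NCKAP1L by PDE1B (0.99), PTPRC by ZBTB32 (0.99), CORO1A by PPFIBP2 (0.98), LCP1 by TRIM44 (0.995), SELPLG by TMBIM1 (0.97) and LAPTM5 by DNAJA3 (0.97). JRKL and DNAJA3 span 0.48 and 0.81 log2 units over the groups, far less than the genes they follow.

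EVI2A, EVI2B and OMG, which encodes a myelin glycoprotein, lie inside the span of NF1 in the RefSeq annotation, and NF1 encodes the Ras-inhibiting protein neurofibromin. NF1 RNA did not fall with its nested genes in RPMI BtzR. It was at 5.90 and 7.20 FPKM in RPMI WT and 10.9 and 12.9 in RPMI BtzR, a log2-fold change of 0.77 (limma adjusted p 0.00014) that was short of a call. In AMO1 it was at 6.52 and 6.39 FPKM in WT and 4.97 and 4.24 in BtzR cells, which gives a log2-fold change of -0.41 (limma adjusted p 0.015), against -4.16 for EVI2A. NF1 was not called in any of the comparisons. OMG did not exceed 1.28 FPKM in any library and was below the filter, with 0.71 and 1.28 FPKM in RPMI WT and 0.09 in both RPMI BtzR libraries. Whether the counting used strand is not given in the sources used here. How reads from the NF1 intron that holds the nested genes were assigned is therefore not known.

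Several of the 10 genes have relatives outside the list. In RPMI BtzR 2 of the 8 relatives followed here were called higher (5.91% of all genes tested) and 0 lower (7.92%). At an unadjusted limma p under 0.05, 5 were higher and 0 lower. NCKAP1, the counterpart of NCKAP1L in the WAVE complex of most cells, went from 0.42 and 0.62 FPKM in RPMI WT to 16.9 and 19.6 in RPMI BtzR, a log2-fold change of 3.66 ± 0.10 (limma adjusted p 4.11e-13). NCKAP1L and NCKAP1 stood at similar FPKM in RPMI BtzR, whereas WT cells of this line had 43.4 and 50.98 FPKM of the former. PLS1, a plastin like LCP1, went from 3.09 and 3.36 FPKM to 11.9 and 15.1, which is 4.18-fold higher. The third plastin, PLS3, was at 0 and 0.11 FPKM in AMO1 WT and 0.02 and 0.05 in AMO1 BtzR, against 78.4 and 87.5 in L363 WT. LCP1 had the opposite order, at 216 FPKM or more in AMO1 WT and BtzR and at most 2.24 in every L363 library.

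**Figure D3:**
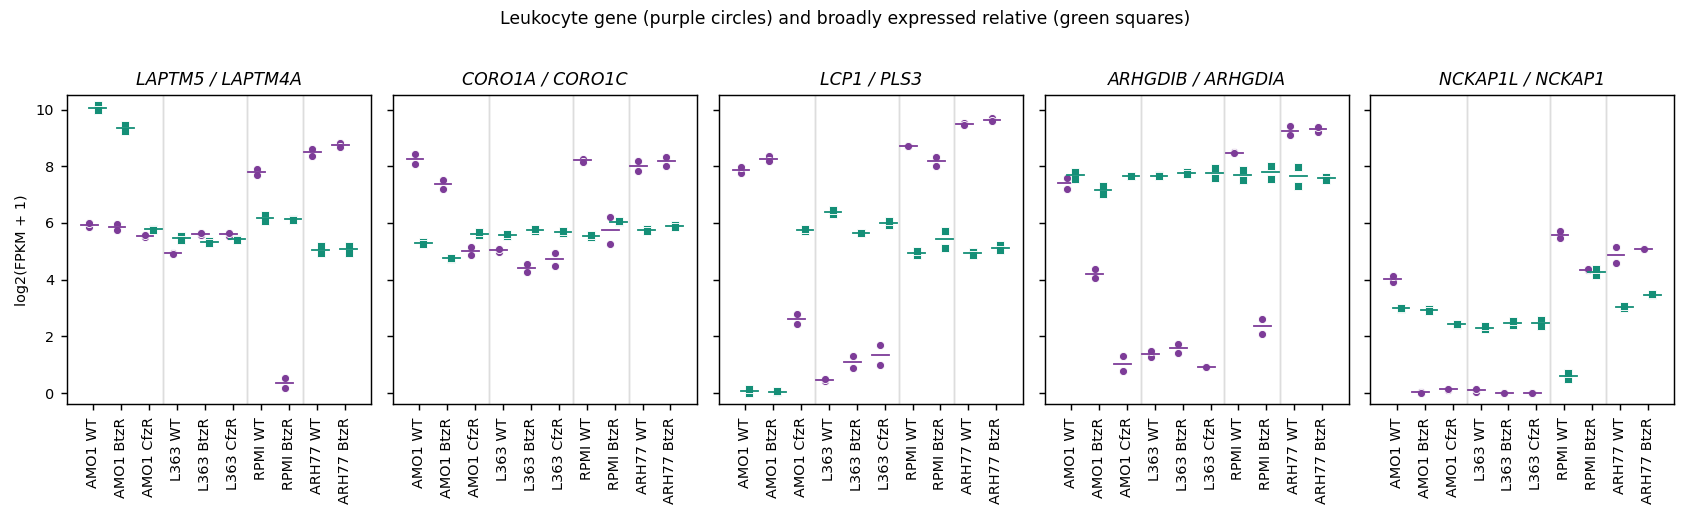
Leukocyte genes (purple circles) and a broadly expressed relative of each (green squares), as log2(FPKM + 1) per library with group means as bars. ARHGDIA and CORO1C stay within a narrow band in all 10 groups while ARHGDIB and CORO1A do not, PLS3 is near 0 in AMO1 WT and BtzR where LCP1 is high, and NCKAP1 rises in RPMI BtzR.

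In AMO1 BtzR 0 of the 8 relatives were called lower (4.57% of all genes tested) and 0 higher (4.61%). At an unadjusted limma p under 0.05, 4 were lower and 1 higher. NCKAP1 stood at 6.86 and 7.10 FPKM in AMO1 WT and 6.84 and 6.44 in AMO1 BtzR, so it did not rise where NCKAP1L was lost. LAPTM4A, a relative of LAPTM5, was at 1149 and 1004 FPKM in AMO1 WT and 699 and 611 in AMO1 BtzR, more than in any other line, and LAPTM4B was at 1.43 FPKM or less in every library. ARHGDIA, the broadly expressed relative of ARHGDIB, lay between 130.3 and 259 FPKM in all 20 libraries and was not called in any comparison. CORO1C, between 25.7 and 65.4 FPKM, was not called either, and CORO1B was called higher in L363 CfzR (1.57 in both WT libraries, 5.46 and 4.09 in CfzR), a call lost without the first L363 CfzR library (log2-fold change 0.99). Relatives share sequence, and the deposited values do not show how the counting divided reads between them.

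A further 24 genes of leukocyte signalling and cytoskeleton, listed with earlier results of these data known, were followed in the same fit. In RPMI BtzR 14 of 24 were called lower and 0 higher (17 and 1 at an unadjusted limma p under 0.05), in AMO1 BtzR 8 lower and 1 higher, in L363 BtzR 2 lower and 2 higher, in L363 CfzR 1 lower and 2 higher, and in ARH77 BtzR 0 either way (2 and 5 at an unadjusted limma p under 0.05). The backgrounds of the calls are those given above for each comparison. CD37, a leukocyte tetraspanin, was at 45.9 and 55.6 FPKM in AMO1 WT and 0 and 0.4 in AMO1 BtzR, and at 71.9 and 68.6 in RPMI WT and 0.09 and 0.18 in RPMI BtzR. ARHGAP15, a GTPase-activating protein for Rac, was at 17.8 and 18.4 FPKM in AMO1 WT and 1.33 and 1.32 in AMO1 BtzR, and at 33.9 and 30.7 in RPMI WT and 0.03 and 0 in RPMI BtzR. Both genes were under 1 FPKM in all 6 L363 libraries and kept their level in ARH77 BtzR.

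PTPN6, the phosphatase SHP-1, and TRAF3IP3, an adaptor, were likewise called lower in AMO1 BtzR and RPMI BtzR. PTPN6 went from 127 and 159 FPKM to 8.80 and 10.52 in AMO1 and from 6.04 and 6.69 to 0.08 and 0.24 in RPMI. WAS, the haematopoietic activator of actin branching, did not go the same way in every line. It went from 42.9 and 49.1 FPKM to 1.77 and 1.27 in AMO1 BtzR and from 74.9 and 72.4 to 17.1 and 15.9 in RPMI BtzR, but from 1.06 and 1.49 to 9.07 and 10.6 in L363 BtzR, and to 5.49 and 5.84 with carfilzomib. PLEK (pleckstrin) was called lower in RPMI BtzR and in both L363 groups and higher in AMO1 BtzR, where it went from 2.73 and 3.64 FPKM to 10.1 and 6.98. The AMO1 call was lost without the first AMO1 BtzR library (log2-fold change 0.94) and with 0.1 or 0.01 FPKM added (limma adjusted p 0.053 and 0.15).

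**Figure D4:**
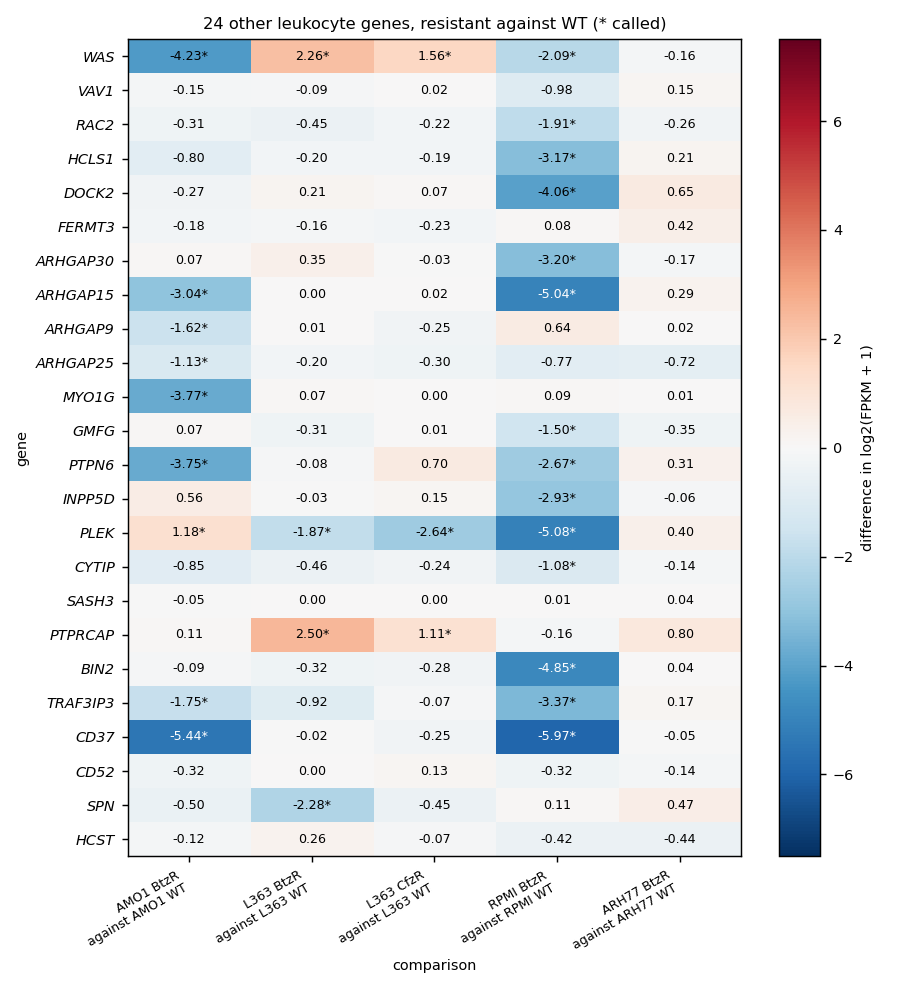
Difference in log2(FPKM + 1) between resistant and WT cells for 24 other leukocyte genes in 5 comparisons; asterisks mark calls. Blue is most frequent in RPMI BtzR (14 genes called lower) and AMO1 BtzR (8), WAS is red in both L363 columns, and ARH77 BtzR has no call.

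Partners of NCKAP1L were called in both directions in RPMI BtzR. Of 9 WAVE complex genes, 1 was called lower (7.92% of all genes tested) and 2 higher (5.91%). CYFIP2, a subunit that binds NCKAP1L or NCKAP1, went from 53.4 and 50.8 FPKM to 5.69 and 6.84, while ABI2 went from 7.67 and 7.96 to 28.7 and 29.3 and WASF1 from 3.95 and 4.79 to 15.6 and 16.4. CYFIP2 was also called lower in L363 BtzR (47.0 and 52.9 FPKM to 22.1 and 27.0), at the threshold with a log2-fold change of -1.001, and WASF3 higher in AMO1 BtzR (1.14 and 0.98 to 3.39 and 3.63). The CYFIP2 call in L363 was lost without the first L363 BtzR library (-0.86), without the second L363 WT library (-0.92), after rescaling to the same sum (-0.94) and after quantile normalization (-0.97).

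Of the enzymes that build the selectin-binding form of PSGL-1, 5 of 6 passed the filter, and FUT7 did not. In RPMI BtzR the tyrosine sulfotransferase TPST1 was higher (4.01 and 4.17 FPKM to 19.4 and 18.3), as was the sialyltransferase ST3GAL4 (1.17 and 1.77 to 14.4 and 12.4), and the branching enzyme GCNT1 was lower (2.30 and 1.78 to 0.15 and 0.17). TPST2 was called lower in AMO1 BtzR (37.3 and 35.0 FPKM to 16.1 and 18.7), just past the size for a call, which it missed without the first AMO1 BtzR library (log2-fold change -0.91), without the first AMO1 WT library (-0.97) and after quantile normalization (-0.97). Of 10 kinases and regulators on which CD45 acts or that act with it, BLK was called lower in RPMI BtzR (17.2 and 18.5 FPKM to 0.25 and 0.4), and FGR lower in AMO1 BtzR (12.1 and 17.1 to 0.35 and 0.76) and higher in L363 CfzR (0.02 and 0.09 to 0.76 and 2.18), the latter lost without the second L363 CfzR library (log2-fold change 0.74). FYN was called higher in RPMI BtzR, where the replicates lay far apart, at 5.38 and 14.7 FPKM against 3.39 and 3.80 in WT. That call was lost without the second RPMI BtzR library (log2-fold change 0.47) and in a fit of the compared libraries only (limma adjusted p 0.057). In WT cells, 8 of the 10 were called higher in ARH77 than in the myeloma lines (11.9% of all genes tested) and 0 lower (10.3%), with 10 and 0 at an unadjusted limma p under 0.05.

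A list of 12 transcription factors held members of the ETS, RUNX, Ikaros and MYB families, which act in blood cells. Of these, 2 were called lower and 1 higher in RPMI BtzR (7.92% and 5.91% of all genes tested) and 1 higher in AMO1 BtzR (4.61%). None was called in L363 BtzR, L363 CfzR or ARH77 BtzR, where 0.649% to 1.11% of all genes tested were called in each direction. At an unadjusted limma p under 0.05 these last had 0 lower and 1 higher in L363 BtzR, 1 lower and 2 higher in L363 CfzR, and 3 lower and 2 higher in ARH77 BtzR. SPI1, which encodes the ETS factor PU.1, was at 20.3 and 22.5 FPKM in RPMI WT and 0.24 and 0.08 in RPMI BtzR. It was at 0.15 FPKM or less in all AMO1 and L363 libraries. RUNX2 went from 3.46 and 4.58 FPKM to 0.17 and 0.54 in RPMI BtzR. ETS1 rose from 0.59 and 0.33 FPKM to 9.72 and 13.3 in AMO1 BtzR and from 2.2 and 2.22 to 17.4 and 12.8 in RPMI BtzR.

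For the list of 10 genes, the 250 bases before RefSeq start sites (GRCh38.p14) were read for the ETS-type letters AGGAAGT, either strand. These motifs were chosen after the sequences were seen. The table at hand held windows for 5 of the 10 genes, LAPTM5, PTPRC, ARHGDIB, LCP1 and CORO1A. They are printed 5′ to 3′ on the strand of the gene, in lower case, with the motif or its reverse complement ACTTCCT in capitals. The windows are chr1:30757775-30758024 on the minus strand for LAPTM5, chr1:198638790-198639039 on the plus strand for PTPRC, chr12:14948897-14949146 on the minus strand for ARHGDIB (the first of 3 windows of this gene), chr13:46182178-46182427 on the minus strand for LCP1 and chr16:30183352-30183601 on the plus strand for CORO1A. In LCP1 the capitals also mark GAGGAAGT, a longer form that holds AGGAAGT, and ACCACA, the reverse complement of the RUNX-type TGTGGT.
LAPTM5: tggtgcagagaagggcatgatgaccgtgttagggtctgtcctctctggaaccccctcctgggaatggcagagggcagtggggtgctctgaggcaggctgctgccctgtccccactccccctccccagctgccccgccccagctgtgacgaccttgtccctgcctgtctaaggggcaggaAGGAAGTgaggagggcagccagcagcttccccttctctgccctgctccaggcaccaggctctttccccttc
PTPRC: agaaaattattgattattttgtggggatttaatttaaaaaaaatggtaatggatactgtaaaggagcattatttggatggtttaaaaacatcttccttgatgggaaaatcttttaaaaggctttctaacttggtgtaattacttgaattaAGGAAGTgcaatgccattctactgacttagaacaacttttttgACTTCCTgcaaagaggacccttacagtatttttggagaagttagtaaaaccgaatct
ARHGDIB: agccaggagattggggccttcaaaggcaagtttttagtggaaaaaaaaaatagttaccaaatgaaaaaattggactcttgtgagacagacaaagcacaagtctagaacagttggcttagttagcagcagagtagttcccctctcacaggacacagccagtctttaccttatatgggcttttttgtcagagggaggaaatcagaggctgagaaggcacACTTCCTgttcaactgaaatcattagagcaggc
LCP1: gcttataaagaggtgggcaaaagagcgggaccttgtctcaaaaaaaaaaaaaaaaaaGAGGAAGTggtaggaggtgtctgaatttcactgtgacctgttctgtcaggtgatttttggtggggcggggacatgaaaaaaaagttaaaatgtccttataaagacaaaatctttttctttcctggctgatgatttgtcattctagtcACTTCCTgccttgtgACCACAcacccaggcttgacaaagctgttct
CORO1A: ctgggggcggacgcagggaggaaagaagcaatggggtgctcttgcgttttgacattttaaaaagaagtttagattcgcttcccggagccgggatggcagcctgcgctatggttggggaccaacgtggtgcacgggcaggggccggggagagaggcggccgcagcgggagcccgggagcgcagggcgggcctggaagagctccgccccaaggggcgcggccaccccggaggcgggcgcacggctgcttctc

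Counting the first window of each gene, AGGAAGT stood in those of LAPTM5, PTPRC, ARHGDIB and LCP1, 4 of 5. It stood in 7.01% of 35116 promoter windows of the same length in the table. Since the motifs were picked after these sequences were seen, a higher share among them is no evidence of enrichment. GAGGAAGT and TGTGGT were found in LCP1 alone, against 2.17% and 10.98% of all windows. The window of CORO1A and the other 2 windows of ARHGDIB held none of these letters. In RPMI BtzR, LAPTM5 and ARHGDIB were far lower, LCP1 was not called and PTPRC was low in both groups. CORO1A, whose window has no match, was called lower. Whether the motif has a part in these values was not tested. A match describes letters only, and no binding was measured.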

How the data were processed

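RNA extraction, library construction and sequencing on the BGISEQ-500 platform were done by BGI. The authors deposited FPKM values for 18305 genes with NCBI gene IDs in 20 libraries. The submitters' processing notes name HISAT2 2.0.4, Bowtie2 2.2.5 and RSEM 1.2.12. The genome build, strandedness and any scaling between libraries are not given in the sources used here. No read counts came with the values, so depth is unknown and no count test, counting interval or detection floor was used.

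Libraries were grouped by the line, drug and replicate in their labels. Values were transformed as log2(FPKM + 1), so that fold changes of low genes are understated. A mean per group was fitted to all 20 libraries with limma 3.58.1 in R 4.3.3, with a mean-variance trend and 10 residual degrees of freedom. Testing was limited to the 13089 genes whose mean reached 1 FPKM in some group, all 10 members among them, and Benjamini-Hochberg adjustment ran over these. Intervals are 95% and pointwise, and folds are ratios of mean FPKM where both means reach 1. Members, gene lists, comparisons and alternatives were chosen with earlier results of these data known. The text names all members, all relatives followed, NF1 and OMG, and from each other list up to 6 genes called in the most of 5 comparisons. For likeness it names the 3 genes outside the members with the highest r, or the first of them. A few results that these rules would name are not reported here. Cell type markers are lists of 6 genes each. The motifs and the marker genes singled out were chosen after their sequences or values were seen. Promoter sequences came from RefSeq (GRCh38.p14). The fitting step was tested on simulated data. Python 3.11.15 with pandas 2.3.3, numpy 2.4.6 and matplotlib 3.10.9 made tables and plots.

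The alternatives were a pseudocount of 0.1 or 0.01 FPKM, no filter or one of 5 FPKM, rescaling to the same sum, quantile normalization, no trend, a replicate block, fits restricted to the libraries compared, a fit without the libraries labelled AMO1 CfzR, L363 WT in place of AMO1 WT for those libraries, and each library left out in turn.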

Additional observations from a re-analysis of the deposited data

Results flagged for a closer look

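The change from WT to BtzR cells differed between the 4 lines for every companion gene, in an F test of line by resistance in limma with Benjamini-Hochberg adjustment over all genes, a test that 71.1% of all genes passed. The adjusted p was 2.72e-10 for ARHGDIB, 5.74e-10 for NCKAP1L, 7.6e-10 for SELPLG, 9.67e-10 for EVI2A, 3.86e-08 for LSP1, 0.000127 for CORO1A, 0.0099 for LCP1 and 0.016 for PTPRC. The last 2 had no call in any line, and their log2-fold changes were 0.40 and -0.32 in AMO1, 0.63 and -0.11 in L363, -0.53 and 0.25 in RPMI and 0.14 and 0.59 in ARH77. Without 1 library at a time, 7 to 8 of the 8 genes passed, and the share of all genes that passed in those fits is not given.

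LAPTM5 moved in opposite directions in the libraries of 2 lines, with a log2-fold change of 0.695 in L363 BtzR and -7.44 in RPMI BtzR. Both L363 BtzR libraries lay above both L363 WT libraries, and both RPMI BtzR libraries below both RPMI WT libraries. LAPTM5 is one of the genes that led to the choice of the list, and the difference was not tested.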

How the results depend on the processing

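Depth is unknown and each group has 2 libraries, so genes near 0 FPKM depend on the constant added before the log. The share of all genes tested that was called is given for the reported setting alone. Counts under the other settings in this section therefore stand without a background. With 0.1 FPKM added, companion genes called higher in L363 BtzR became 1, those called lower and higher in L363 CfzR 1 and 1, and those called lower in L363 CfzR against L363 BtzR 1. Of the 78 other listed genes, 5 were then called higher in AMO1 BtzR (3 as reported), 2 lower in L363 CfzR, 1 lower in ARH77 BtzR and 2 lower in L363 CfzR against L363 BtzR (1 each as reported in L363, 0 in ARH77). With 0.01 FPKM added, the companion counts lower and higher were 4 and 1 in L363 BtzR and 2 and 1 in L363 CfzR, with 1 lower in L363 CfzR against L363 BtzR, and the listed counts were 5 higher in AMO1 BtzR, 2 lower in L363 CfzR, and 1 lower and 0 higher in ARH77 BtzR. Rescaling to the same sum left 1 companion gene lower in L363 BtzR and turned SELPLG in ARH77 BtzR to -0.018. Quantile normalization called 1 companion gene lower in L363 CfzR and turned ARHGDIB in ARH77 BtzR to -0.0602. The libraries labelled AMO1 CfzR set against L363 WT gave 0 companion genes lower and 1 higher, 2 and 2 listed genes, and log2-fold changes of 2.14 for LCP1, 0.25 for SELPLG and 0.028 for NCKAP1L.

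Leaving out 1 library at a time, companion genes called lower ranged from 1 (without its second library) to 3 (without the first L363 WT library) in L363 BtzR and from 0 to 1 (without the first L363 WT library) in L363 CfzR, and those called higher from 0 to 1 in L363 CfzR (1 without its first library, LCP1), 0 to 1 in ARH77 BtzR (1 without the second ARH77 WT library) and 1 (without the second L363 BtzR library) to 2 in L363 CfzR against L363 BtzR. Listed genes ranged from 2 to 5 higher in AMO1 BtzR (5 without its second library or the first AMO1 WT library), 0 to 2 lower in ARH77 BtzR (2 without the first ARH77 WT library) and 1 to 5 higher in L363 CfzR against L363 BtzR (5 without the first L363 CfzR library, 1 without the second). Log2-fold changes near 0 changed sign: in ARH77 BtzR SELPLG ranged from -0.038 to 0.082, LSP1 from -0.43 to 0.074, ARHGDIB from -0.11 to 0.20 and NCKAP1L from -0.0602 to 0.49, EVI2A in ARH77 WT against the myeloma WT groups from -0.64 to 0.21, SELPLG in L363 CfzR from -0.0025 to 0.17, and in L363 CfzR against L363 BtzR EVI2A from -0.042 to 0.014, NCKAP1L from 0 to 0.014 and LCP1 from -0.11 to 0.59. In these cases the cause was not tested.

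With the replicate number as a block, 3, 2, 0, 6 and 0 companion genes were called lower in AMO1 BtzR, L363 BtzR, L363 CfzR, RPMI BtzR and ARH77 BtzR, as without it. The labels do not say whether same-numbered libraries are paired. Their deviations correlated at -0.0055 in AMO1 BtzR and at 0.12 to 0.24 in the other comparisons, and the source of this was not tested. The counts of companion genes stayed within 1.5 times the reported ones under the filters, without the trend, in fits of the compared libraries only and without the libraries labelled AMO1 CfzR.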
